A study of Homo sapiens with 18 samples.

Results

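OFD1, the protein of the oral-facial-digital syndrome 1 locus, and 7 partner proteins of the centriolar satellites, PCM1, CEP290, CEP131, CEP72, SSX2IP, BBS4 and MIB1, were followed at the RNA level in pancreatic cancer cells with and without OFD1 knockdown. The members were taken by gene symbol, and all 8 of them were among the 26668 symbols of the expression table and above 0 in all 3 cell lines. RNA-seq covered PATU8988T, PANC1 and MIA PaCa-2, established human cell lines of pancreatic cancer, with 3 control and 3 OFD1 knockdown libraries in each, 18 in all. The knockdown cells carried an shRNA against OFD1 under a Tet-on promoter and were collected 72 h after doxycycline. The control samples are titled shControl and labelled as wild type with no treatment, while the methods name DMSO-treated cells of the same Tet-on lines, so whether the controls carried the OFD1 shRNA or another one is not settled. The series text places the samples at days 0 and 3, and effects of doxycycline, of the shRNA construct or of time in culture cannot be told apart from those of losing OFD1. For replicates 2 and 3 of both PATU8988T groups, the source labels spell the line as PaTu 8989T and PaTu 8990T, and their titles, which name PaTu 8988T, were followed. Nothing in the labels says whether libraries of a group came from separate cultures, so p-values measure only the spread between these libraries.

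Centriolar satellites are small protein granules that gather around the centrosome and move along microtubules, carrying proteins to and from the centrioles. PCM1 is their scaffold, and the other members bind to it directly or indirectly. OFD1 is present both in satellites and at the distal end of the centriole, where it is needed for the appendages that dock a primary cilium, and autophagic removal of its satellite pool is known to favour cilium formation. Pancreatic ductal cancer cells commonly lack primary cilia.

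The expression values were FPKM, that is, a read density that divides the fragments of a gene by gene length and library total. Whole reads could be recovered from them, and a library held 32486479 to 39797537 counted reads. A member had between 287 and 6121 reads in a library, so counting error alone was 1.28% to 5.90% of a value. Values of MIA PaCa-2 control replicate 2 moved strongly with the GC content of the transcript. Its deviation from the other 2 controls had a median of -0.53 on the log2 scale in the third of genes with the lowest GC content and 0.49 in the third with the highest, and the Pearson correlation across 10233 genes was 0.875, against -0.593 to 0.579 in the 15 libraries outside that group. The widest of those 15 were PATU8988T knockdown replicates 1 and 2, with medians of 0.10 and -0.13 for genes of low GC content and of -0.10 and 0.08 for genes of high GC content, taken the same way. For the changes of members within MIA PaCa-2 and the counts of genes past the test, results are given with and without control replicate 2. For other genes with a MIA PaCa-2 value, this was done where leaving that library out changed a call or moved the value by over 1.5 times. Counts of groups that did not overlap, ratios, levels, correlations and some differences between lines are given with all libraries only. Of the 7 pancreatic cancer cell markers, KRT8, KRT18 and VIM averaged above 1 FPKM in all 3 lines. CDH1, the epithelial cadherin, and KRT7 averaged under 1 FPKM in MIA PaCa-2 and PATU8988T, EPCAM in MIA PaCa-2 and KRT19 in PATU8988T. Acinar, endocrine and endothelial markers averaged under 1 FPKM throughout. Of the 5 fibroblast markers, COL3A1 averaged above 1 FPKM in every line and COL1A1 in PANC1 also, and the summed level of the list was 6.18 to 6.86 FPKM in MIA PaCa-2 controls against 29.7 to 30.8 FPKM after knockdown. Of the 5 leukocyte markers, PTPRC and CD79A averaged above 1 FPKM in MIA PaCa-2, where the list summed to 6.71 to 7.44 FPKM in controls and 9.43 to 10.7 FPKM after knockdown. Their part in the results on the members was not tested.

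The knockdown was read first on OFD1 itself, the gene the shRNA targets. In PANC1, OFD1 stood at 5.50, 5.12 and 5.67 FPKM in the controls and at 2.80, 2.27 and 2.58 FPKM after knockdown. The groups did not overlap, and 46.9% of the control mean remained. On the scale of log2(FPKM + 0.1), which is the scale of all differences below, OFD1 fell by 1.07 ± 0.09 (SE, n = 3 per group, adjusted p = 2.7e-06, limma with Benjamini-Hochberg adjustment over all genes tested in the line). In PATU8988T, OFD1 was at 2.14, 1.93 and 2.12 FPKM in the controls and at 0.986, 0.894 and 0.854 FPKM after knockdown. Again the groups were apart, with 44.2% remaining and a difference of -1.10 ± 0.10 (SE, adjusted p = 5.47e-05). In MIA PaCa-2, the controls were at 3.09, 2.27 and 3.20 FPKM and the knockdown libraries at 1.76, 1.74 and 1.97 FPKM. Here the lowest control was the library that stood apart, 63.9% of the control mean remained, and the difference was -0.61 ± 0.16 (SE, adjusted p = 0.0232). Leaving out control replicate 2 gave -0.76 ± 0.09 (SE, adjusted p = 8.76e-05), whereas leaving out any 1 of the other 5 MIA PaCa-2 libraries gave -0.52 to -0.66 with adjusted p between 0.0604 and 0.0896.

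The fall of OFD1 was smaller in MIA PaCa-2 than in the other lines. The difference between the changes, tested as an interaction in 1 fit of all 18 libraries, was -0.46 (95% CI -0.81 to -0.11, adjusted p = 0.0331) for PANC1 minus MIA PaCa-2 and 0.49 (95% CI 0.14 to 0.84, adjusted p = 0.0193) for MIA PaCa-2 minus PATU8988T. PANC1 and PATU8988T differed by 0.03 (95% CI -0.32 to 0.38, adjusted p = 0.906). Without MIA PaCa-2 control replicate 2, the first pair gave -0.31 (adjusted p = 0.0423) and the second 0.34 (adjusted p = 0.0239). With a pseudocount of 1 FPKM in place of 0.1, the second gave 0.24 (adjusted p = 0.103).

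OFD1 lies on the X chromosome (GRCh38, GENCODE 29, positions 13734745 to 13769353, plus strand), head to head with TRAPPC2, a subunit of the TRAPP complexes of vesicle transport (13712244 to 13734635, minus strand). Whether the stretch between them has a part in the level of either gene was not tested. The 109 bases between the GENCODE starts of both genes are shown as a description. They are given on the plus strand from the RefSeq promoter entry of OFD1 (GRCh38.p14, chrX:13734636-13734744), with the letters of an X-box half-site, GTTGCC on either strand, in capitals.
OFD1 and TRAPPC2: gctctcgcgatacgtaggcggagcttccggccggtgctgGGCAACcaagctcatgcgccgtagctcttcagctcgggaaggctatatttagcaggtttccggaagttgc
X-boxes are the sites of the RFX factors that act on many cilium genes. Further matches to these letters lay at position -8 from the RefSeq start of OFD1, running past the end of the stretch shown, and at -102 and -45 in the promoter of MIB1. Among the 7 members with a RefSeq promoter entry (250 bases before to 50 after the start), 2 held the half-site, against 12.2% of 35116 promoters. The E2F core GCGGGAA was in 0 of the 7 and in 6.6% of all promoters.

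TRAPPC2 stood at 2.48, 2.12 and 2.04 FPKM in PANC1 controls and at 4.31, 4.13 and 4.64 FPKM after knockdown. All 3 knockdown libraries were above all controls, and TRAPPC2 rose by 0.95 ± 0.10 (SE, adjusted p = 9.52e-06), or 1.97-fold in the means. In MIA PaCa-2 it rose by 0.31 ± 0.10 (SE, adjusted p = 0.0429), from 6.55 to 6.98 FPKM in the controls to 7.61 to 8.86 FPKM. In PATU8988T the difference was 0.09 (95% CI -0.07 to 0.24, adjusted p = 0.34) with overlapping libraries. RefSeq models of OFD1 start inside TRAPPC2 on the opposite strand (OFD1 from 13714505, TRAPPC2 to 13734620), and strandedness of the counting is not given in the sources used here, so reads of the shared stretch cannot be told apart. GEMIN8, an SMN complex subunit farther along the chromosome, rose by 0.66 in PANC1 (adjusted p = 0.00182) and by 0.35 in MIA PaCa-2 (adjusted p = 0.0337), and its difference in PATU8988T was -0.17 (adjusted p = 0.285). RAB9A, a GTPase of endosome to Golgi transport, differed by 0.07, -0.01 and 0.09 in PANC1, MIA PaCa-2 and PATU8988T (adjusted p 0.37, 0.968 and 0.223), and RAB9A was lower in MIA PaCa-2 without control replicate 2 (-0.15, adjusted p = 0.0327). GPM6B was tested only in MIA PaCa-2 (0.24, adjusted p = 0.404, and 0.00836, adjusted p = 0.944, without that library), and TCEANC and EGFL6 averaged under 1 FPKM and were not tested.

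**Figure D1:**
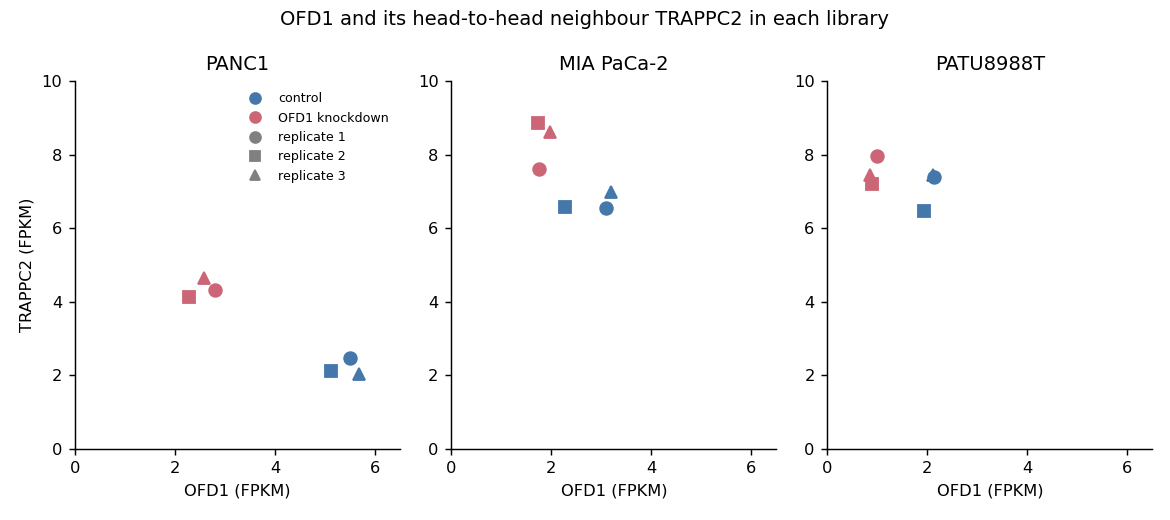
FPKM of TRAPPC2 (vertical) against FPKM of OFD1 (horizontal) in each library, 1 panel per line, colours for control and knockdown and symbols for the replicate number. In PANC1 the knockdown libraries combine 2.27 to 2.80 FPKM of OFD1 with 4.13 to 4.64 FPKM of TRAPPC2, in PATU8988T the TRAPPC2 values of both groups overlap.

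Of the 7 partners, 4 passed the test at an adjusted p below 0.05 in PANC1, where 72.3% of the 10902 genes tested passed. CEP131 and CEP72 were the 2 that were lower (32.2% of all genes) and PCM1 and BBS4 the 2 that were higher (40.1%). In PATU8988T, 2 of 7 passed among 39.4% of 10698 genes, and both, CEP290 and CEP131, were lower (18.5% of all genes were lower and 20.9% higher). In MIA PaCa-2, 1 of 7 passed among 40.4% of 10758 genes, and it, BBS4, was higher (18.7% of all genes were higher and 21.7% lower). Without control replicate 2, 6 of the 7 partners passed in MIA PaCa-2 among 75.1% of genes, 4 of them higher (35.1% of genes) and 2 lower (40.0%). The shares of the partners that passed were not above these backgrounds with all libraries, and with that library left out the share was 6 of 7. The libraries of both groups did not overlap for 3 partners in PANC1 (75.0% of all genes), for 2 in PATU8988T (51.9%) and for 3 in MIA PaCa-2 (59.3%). OFD1 fell by more than 2-fold with an adjusted p below 0.05 in PANC1 (4.84% of genes did) and PATU8988T (0.841%), and not in MIA PaCa-2 (3.68%). No difference of a partner reached 2-fold in any line, whatever its p. Among all genes, rises of 2-fold with that adjusted p made up 1.75% (PANC1), 4.07% (MIA PaCa-2) and 0.159% (PATU8988T). The median difference over the 7 partners was 0.000918 for PANC1, 0.24 for MIA PaCa-2 and -0.11 for PATU8988T, beside 0.06, -0.03 and 0.03 over all genes tested. The MIA PaCa-2 median was the value of CEP290, which was -0.18 without control replicate 2.

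**Figure D2:**
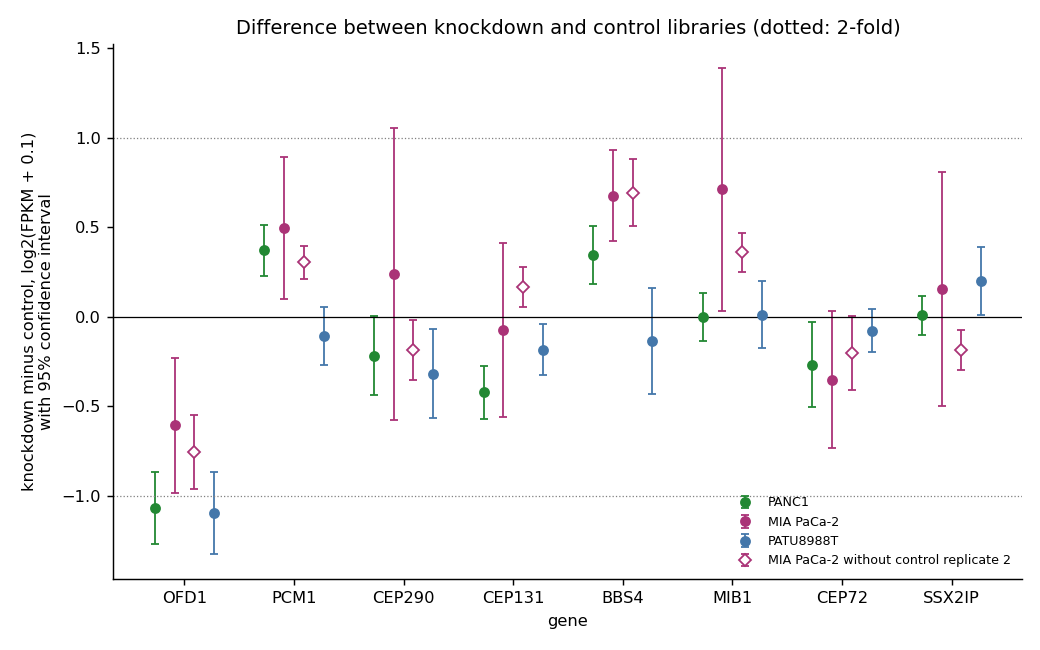
Knockdown minus control for each member on the log2(FPKM + 0.1) scale with 95% confidence intervals, for the 3 lines and, as open diamonds, for MIA PaCa-2 without control replicate 2; dotted lines mark a 2-fold change. Only OFD1 reaches a dotted line with its point in PANC1 and PATU8988T, and the intervals of CEP290, CEP131, MIB1 and SSX2IP in MIA PaCa-2 narrow when control replicate 2 is left out.

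PCM1, the scaffold on which satellites assemble, rose in PANC1. It was at 6.82, 7.78 and 7.54 FPKM in the controls and at 9.88, 9.19 and 9.60 FPKM after knockdown, with no overlap. The difference was 0.37 ± 0.06 (SE, adjusted p = 0.000397), or 1.30-fold in the means. In MIA PaCa-2 the knockdown libraries, at 11.8, 11.9 and 11.8 FPKM, all lay above the controls, at 9.36, 6.40 and 9.75 FPKM. That difference was 0.49 ± 0.17 (SE, adjusted p = 0.0525), and it was 0.30 ± 0.04 (SE, adjusted p = 0.000176) without control replicate 2 and 0.60 (adjusted p = 0.0434) without control replicate 3. It also passed with limma-voom on recovered reads (0.50, adjusted p = 0.0446) and with median-centred libraries (0.53, adjusted p = 0.0345). In PATU8988T PCM1 was at 9.72, 10.4 and 9.73 FPKM in the controls and at 10.1, 8.36 and 9.31 FPKM after knockdown, groups that overlapped, with a difference of -0.11 (95% CI -0.27 to 0.05, adjusted p = 0.258) that passed after a GC correction chosen after seeing the data (-0.14, adjusted p = 0.0301). The change in PATU8988T differed from that in PANC1 by 0.48 (PANC1 minus PATU8988T, 95% CI 0.12 to 0.84, adjusted p = 0.0364) and from that in MIA PaCa-2 by 0.60 (MIA PaCa-2 minus PATU8988T, 95% CI 0.25 to 0.96, adjusted p = 0.00678). Without MIA PaCa-2 control replicate 2, these differences were 0.48 (adjusted p = 0.000148) and 0.41 (adjusted p = 0.000757).

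The ratio of OFD1 to PCM1 RNA fell further than OFD1 itself in PANC1 and MIA PaCa-2. In both lines the PCM1 mean was higher after knockdown, in MIA PaCa-2 not past the test with all libraries (limma, adjusted p = 0.0525). The ratio of OFD1 to PCM1 FPKM was 0.807, 0.659 and 0.752 in PANC1 controls and 0.283, 0.247 and 0.268 after knockdown, so that 36.0% of the control ratio remained. In MIA PaCa-2 the ratio was 0.330, 0.354 and 0.328 in the controls, where replicate 2 did not stand apart, and 0.149, 0.146 and 0.168 after knockdown, which left 45.7%. In PATU8988T it went from 0.220, 0.185 and 0.218 to 0.0975, 0.107 and 0.0917, which left 47.5%. The groups were apart in each line, and each exact two-sided permutation test of 3 libraries against 3 gave p = 0.1, the smallest this design allows. Since OFD1 is the targeted gene, a lower ratio is set in large part by its own fall. Over the partners, the part of the control ratio that remained ran from 36.0% (PCM1) to 63.4% (CEP131) in PANC1. It ran from 38.2% (SSX2IP) to 55.4% (CEP290) in PATU8988T and from 38.3% (MIB1) to 79.4% (CEP72) in MIA PaCa-2. The libraries of OFD1 per CEP72 overlapped in MIA PaCa-2, where control replicate 2, at 0.403, was below the knockdown libraries.

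CEP131 (AZI1) is a satellite protein that PCM1 holds in satellites and that takes part in cilium formation. In PANC1 it was at 7.35, 6.91 and 6.76 FPKM in the controls and at 4.86, 5.34 and 5.42 FPKM after knockdown. Every knockdown library was below every control, and CEP131 fell by 0.42 ± 0.07 (SE, adjusted p = 0.000242), to 74.3% of the control mean. In PATU8988T, with 5.12, 5.19 and 5.27 FPKM against 4.27, 4.64 and 4.78 FPKM and again no overlap, it fell by 0.18 ± 0.06 (SE, adjusted p = 0.044). That call was lost when any 1 of the PATU8988T libraries other than knockdown replicate 2 was left out (adjusted p 0.0548 to 0.121), and with a GC correction chosen after seeing the data (-0.09, adjusted p = 0.161). In MIA PaCa-2 the controls were at 6.16, 10.4 and 6.35 FPKM and the knockdown libraries at 7.10, 6.88 and 7.11 FPKM, so the knockdown libraries lay between the controls. The difference of -0.07 (95% CI -0.56 to 0.41, adjusted p = 0.794) turned to 0.17 ± 0.05 (SE, adjusted p = 0.0131) without control replicate 2. Without that library, the change in PANC1 was below that in MIA PaCa-2 by -0.59 (adjusted p = 1.01e-05), against -0.35 (adjusted p = 0.16) with it.

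CEP72 recruits CEP290 to satellites. In PANC1 its level was 4.43, 4.26 and 3.37 FPKM in the controls and 3.24, 3.50 and 3.17 FPKM after knockdown, with control replicate 3 inside the range of the knockdown libraries. CEP72 fell by 0.27 ± 0.11 (SE, adjusted p = 0.0437), and the call was lost without control replicate 1 or 2 or without knockdown replicate 1 or 3 (adjusted p 0.0955 to 0.157). In MIA PaCa-2 it was at 3.88, 5.62 and 4.30 FPKM against 3.37, 3.34 and 3.93 FPKM, a difference of -0.35 (95% CI -0.73 to 0.03, adjusted p = 0.124), which was -0.20 (95% CI -0.41 to 0.00622, adjusted p = 0.0721) without control replicate 2. In PATU8988T it was the highest of the 8 members, at 11.5, 11.4 and 12.03 FPKM against 10.4, 11.3 and 11.4 FPKM, a difference of -0.08 (95% CI -0.20 to 0.04, adjusted p = 0.271). The 3 estimates had the same sign, and no pair of lines differed past the test.

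CEP290 is a large protein of satellites and of the ciliary transition zone, where it joins the membrane to the axoneme. In PATU8988T it was at 2.77, 2.72 and 2.27 FPKM in the controls and at 2.27, 1.80 and 2.11 FPKM after knockdown, so that the lowest control met the highest knockdown library. CEP290 fell there by 0.32 ± 0.11 (SE, adjusted p = 0.0474), and the call was lost without control replicate 1 or 2 or without knockdown replicate 2 or 3 (adjusted p 0.0824 to 0.152). In PANC1 it was at 5.66, 4.41 and 4.65 FPKM against 4.53, 4.08 and 3.96 FPKM, a difference of -0.22 (95% CI -0.44 to 0.00435, adjusted p = 0.0719). That difference passed without control replicate 2 (-0.29, adjusted p = 0.0339) or without knockdown replicate 1 (-0.27, adjusted p = 0.048). It also passed with limma-voom on recovered reads (-0.22, adjusted p = 0.00428) and with the GC correction (-0.25, adjusted p = 0.0338). In MIA PaCa-2 it was at 3.18, 1.21 and 2.97 FPKM against 2.67, 2.65 and 2.75 FPKM, and the difference of 0.24 (95% CI -0.57 to 1.05, adjusted p = 0.607) became -0.18 ± 0.07 (SE, adjusted p = 0.0478) without control replicate 2.

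The promoters of CEP72 and CEP290 were the 2 of 7 that held the letters TTTGAA of the CHR element, bound by the DREAM and MuvB complexes on many cell cycle genes, against 15.2% of 35116 promoters (both strands searched). OFD1 and CEP131 were also lower in at least 1 line, and their promoters held no match. The windows of CEP72 and CEP290 are shown with the match in capitals. Both are from RefSeq promoters on GRCh38.p14, for CEP72 at chr5:612342-612371 on the plus strand, with the match beginning at base 14 after the start, and for CEP290 at chr12:88142198-88142227 on the minus strand, with the match at -127.
CEP72: ccgagggctccgTTTGAAacatggcgcggg
CEP290: tgcactctgggaTTTGAAgtcctcgttcca
A match of 6 letters in these windows is a description of the sequence.

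SSX2IP (msd1), which anchors microtubules at the centrosome and promotes recruitment of ciliary proteins, was the highest of the members in PANC1. It was at 21.2, 19.4 and 21.6 FPKM in PANC1 controls and at 21.7, 20.3 and 20.6 FPKM after knockdown, a difference of 0.01 (95% CI -0.10 to 0.12, adjusted p = 0.871). In PATU8988T it was at 3.82, 3.59 and 3.49 FPKM against 4.73, 3.93 and 3.95 FPKM. All 3 knockdown libraries were above the controls, with a difference of 0.20 (95% CI 0.01 to 0.39, adjusted p = 0.0868), or 0.18 (adjusted p = 0.0434) after the GC correction. In MIA PaCa-2 the controls were at 12.2, 6.13 and 12.9 FPKM and the knockdown libraries at 10.6, 11.5 and 10.9 FPKM. The difference there was 0.15 (95% CI -0.50 to 0.81, adjusted p = 0.682) with all libraries and -0.19 ± 0.05 (SE, adjusted p = 0.00848) without control replicate 2. Without that library the change differed between MIA PaCa-2 and PATU8988T by -0.39 (adjusted p = 0.00176).

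BBS4 links the satellites to the BBSome, the coat complex that moves membrane proteins out of cilia, and it travels on PCM1. In MIA PaCa-2 BBS4 was at 3.29, 3.57 and 3.61 FPKM in the controls, where replicate 2 lay between the others, and at 5.16, 6.04 and 5.75 FPKM after knockdown. The groups were far apart, and BBS4 rose by 0.68 ± 0.11 (SE, adjusted p = 0.00358), or 1.62-fold in the means. Without control replicate 2 the rise was 0.69 ± 0.08 (SE, adjusted p = 7.87e-05). In PANC1 BBS4 rose by 0.35 ± 0.07 (SE, adjusted p = 0.00155), from 11.6, 10.6 and 9.37 FPKM to 12.8, 13.8 and 13.4 FPKM, with no overlap. In PATU8988T the controls, at 4.76, 4.98 and 3.62 FPKM, overlapped with the knockdown libraries, at 3.52, 4.70 and 3.88 FPKM, and the difference was -0.14 (95% CI -0.43 to 0.16, adjusted p = 0.444). The change of BBS4 differed between lines by 0.81 (95% CI 0.45 to 1.18, adjusted p = 0.000895) for MIA PaCa-2 minus PATU8988T and by 0.48 (95% CI 0.12 to 0.85, adjusted p = 0.0379) for PANC1 minus PATU8988T. For PANC1 minus MIA PaCa-2 it was -0.33 (95% CI -0.69 to 0.03, adjusted p = 0.132).

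MIB1 is a ubiquitin ligase of the satellites, known to modify PCM1 and CEP131 and to activate Notch ligands at the cell surface. In PANC1 it was at 8.21, 7.53 and 8.51 FPKM in the controls and at 8.30, 7.89 and 8.05 FPKM after knockdown, a difference of 0.000918 (95% CI -0.13 to 0.13, adjusted p = 0.989). In PATU8988T, at 7.30, 7.55 and 7.28 FPKM against 8.20, 6.47 and 7.78 FPKM, it was 0.01 (95% CI -0.17 to 0.20, adjusted p = 0.915). In MIA PaCa-2 the controls were at 8.60, 3.96 and 8.07 FPKM and the knockdown libraries at 10.5, 10.6 and 11.04 FPKM, all above the controls. The difference was 0.71 (95% CI 0.04 to 1.39, adjusted p = 0.0864) with all libraries. Without control replicate 2 it was 0.36 ± 0.05 (SE, adjusted p = 0.000173), with an interval of 0.25 to 0.47. The interaction for MIB1 was -0.71 (95% CI -1.29 to -0.13, adjusted p = 0.0463) for PANC1 minus MIA PaCa-2 and 0.70 (95% CI 0.12 to 1.28, adjusted p = 0.0418) for MIA PaCa-2 minus PATU8988T, and without that library -0.36 (adjusted p = 0.00552) and 0.35 (adjusted p = 0.00597).

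Counted over the 8 members, the change differed past the test for 2 members between PANC1 and MIA PaCa-2, for 2 between PANC1 and PATU8988T and for 4 between MIA PaCa-2 and PATU8988T, among 43.4%, 35.8% and 52.9% of the 9083 genes tested in all lines. Those shares are close to or above the members' own, and each pair of lines shares libraries with another pair. Without MIA PaCa-2 control replicate 2 the counts were 3, 3 and 6, among 64.3%, 59.0% and 70.9% of genes.

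The deviation of MIA PaCa-2 control replicate 2 followed the GC content of the members closely. The members with the least GC, CEP290 (35.9%), SSX2IP (37.0%) and MIB1 (37.7%), lay below the mean of the other controls by -1.27, -1.02 and -1.06 on the log2 scale. PCM1 (39.7% GC) and OFD1 (43.0% GC) lay at -0.57 and -0.45, and BBS4 (45.3% GC) at 0.05. The members richest in GC, CEP72 (55.4%) and CEP131 (65.6%), lay above by 0.45 and 0.72. What gave rise to this was not tested. When each library's deviation was corrected for GC content, a step chosen after seeing these values, 5 of the 8 members passed in MIA PaCa-2: OFD1 (-0.64) and CEP72 (-0.26, adjusted p = 0.0369) were lower, and PCM1 (0.43, adjusted p = 9.65e-05), BBS4 (0.66) and MIB1 (0.62, adjusted p = 0.000951) were higher. The share of all genes that passed under this correction is not given here, so the count has no background. With control replicate 2 left out instead, 75.1% of all genes passed.

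**Figure D3:**
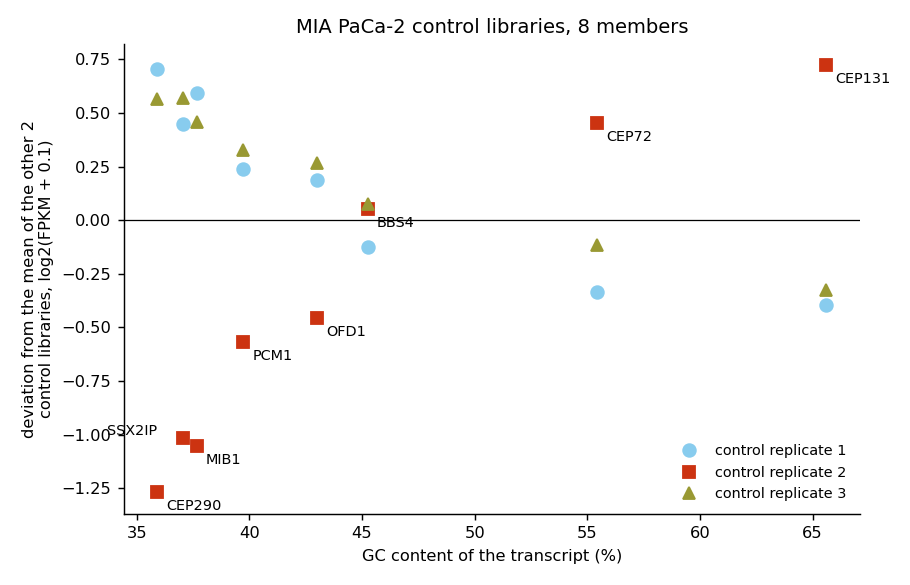
Deviation of each MIA PaCa-2 control library from the mean of the other 2 controls, log2(FPKM + 0.1), against the GC content of the transcript (%), for the 8 members. Control replicate 2 runs from -1.27 at CEP290 to 0.72 at CEP131, and the other 2 controls run the opposite way because each is set against a mean that holds replicate 2.

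Levels of the members were ranked within a line by FPKM, so the order rests on the gene lengths used for that line. These lengths differed between PANC1 and the other lines, as given below for OFD1 and MIB1. The order under other lengths was not tested. In PANC1 controls the order of mean levels was SSX2IP, BBS4, MIB1, PCM1, CEP131, OFD1, CEP290 and CEP72. The libraries of MIB1 and PCM1, of PCM1 and CEP131, of OFD1 and CEP290 and of CEP290 and CEP72 overlapped, so these neighbours were not apart. In PATU8988T controls the order was CEP72, PCM1, MIB1, CEP131, BBS4, SSX2IP, CEP290 and OFD1, with overlap only between BBS4 and SSX2IP. Over all 3 MIA PaCa-2 controls, SSX2IP, PCM1, CEP131, MIB1 and CEP72 overlapped in turn, followed by BBS4, OFD1 and CEP290, of which the last pair overlapped. After knockdown OFD1 was the lowest of the 8 in each line. It was already the lowest in PATU8988T controls, and in MIA PaCa-2 controls it overlapped with CEP290, the lowest there.

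FPKM of PANC1 was made with other gene lengths than FPKM of the other lines (OFD1 4150 bases in PANC1 and 9312 in both others, MIB1 9432 and 14466), and levels between lines were therefore read as RPM, reads scaled by the library total alone, and without a test. CEP72 had 10.97 ± 1.56 RPM in PANC1 controls, 12.5 ± 2.48 in MIA PaCa-2 and 31.7 ± 0.946 in PATU8988T (SD, n = 3). SSX2IP ran the other way, with 125 ± 6.88, 64.5 ± 23.0 and 22.5 ± 1.04 RPM. BBS4 had 29.3 ± 3.07, 9.74 ± 0.501 and 12.4 ± 2.04 RPM in the same order. OFD1 had 22.5 ± 1.16, 26.6 ± 4.74 and 19.2 ± 1.04 RPM, the narrowest range of these 4 genes. RPM does not remove a difference in the bases over which reads were counted, and that difference was largest for OFD1 among the 4. CEP72 and BBS4 had 1 length in all lines (2728 and 2791 bases), and SSX2IP had 6052 in PANC1 and 6207 in both others. The OFD1 reads of PANC1 may therefore not compare with those of the other lines.

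The genes whose levels moved most like OFD1 over the 18 libraries, each line centred on its own mean, were SAMD8 (Pearson r = 0.977), SUN1 (0.962), BRCA1 (0.962), HIP1 (0.953) and PTK2 (0.950), out of 9082 genes. These 18 points share the split into control and knockdown, so the correlations are a description. SAMD8, a sphingomyelin synthase family member of the endoplasmic reticulum, fell by 1.17 in PANC1 (adjusted p = 2.18e-06) and by 0.88 in PATU8988T (adjusted p = 1.04e-05), with -0.48 in MIA PaCa-2 (adjusted p = 0.062). SUN1, a protein of the inner nuclear membrane, had a much smaller change than OFD1, -0.15, -0.07 and -0.19 in PANC1, MIA PaCa-2 and PATU8988T, where the first and the last passed (adjusted p 0.000905 and 0.00308). HIP1, an endocytic adaptor, fell in all 3 lines (-0.45, -0.28 and -0.53, adjusted p 9.36e-05, 0.0344 and 0.00073). BRCA1, of homologous recombination, fell by 1.66, 1.18 and 1.22 (adjusted p 4.03e-08, 0.00237 and 3.76e-06). PTK2, the focal adhesion kinase, fell by 0.69 in PANC1 (adjusted p = 6.91e-07) and 0.42 in PATU8988T (adjusted p = 7.1e-05), with -0.31 in MIA PaCa-2 (adjusted p = 0.0587). Without control replicate 2, SAMD8 (-0.66, adjusted p = 2.56e-05), SUN1 (-0.09, adjusted p = 0.0226) and PTK2 (-0.41, adjusted p = 4.45e-05) also passed in MIA PaCa-2. Among the partners, CEP131 (r = 0.456), CEP72 (0.450) and CEP290 (0.414) ranked from 2037 to 2241 in likeness, and PCM1 (-0.348) and BBS4 (-0.451) had a negative r. In PATU8988T, the differences of PCM1 (-0.11) and BBS4 (-0.14) had the sign of OFD1, and neither passed the test. All these correlations hold MIA PaCa-2 control replicate 2, and no value without that library is given here.

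Lists of other genes from the same structures were read for context, beside the shares of all genes tested that were lower and higher (PANC1 32.2% and 40.1%, MIA PaCa-2 21.7% and 18.7%, PATU8988T 18.5% and 20.9%). Of 20 other satellite proteins, 17 were tested in PANC1, where 4 were lower and 7 higher, and 15 in each other line, where those that passed (2 in MIA PaCa-2, 1 in PATU8988T) were higher. Their median difference was 0.05, -0.00277 and -0.09 in PANC1, MIA PaCa-2 and PATU8988T, beside the medians of all genes given above. In PANC1, HOOK3, a dynein adaptor that binds PCM1, fell by 1.19 (adjusted p = 1.31e-05), from 1.83 ± 0.07 to 0.749 ± 0.048 FPKM (SD, n = 3), and PARD6A, a polarity protein, rose by 0.67 (adjusted p = 1.98e-05). In MIA PaCa-2, HOOK3 differed by -0.49 (adjusted p = 0.295) and PARD6A by 0.38 (adjusted p = 0.0817). Without control replicate 2, both passed there, at -0.91 (adjusted p = 2.07e-05) and 0.47 (adjusted p = 0.00469). Neither passed in PATU8988T (adjusted p 0.116 and 0.619). In MIA PaCa-2, SDCCAG8 and CSTPP1 (C11orf49) rose by 0.40 and 0.34 (adjusted p 0.0361 and 0.0474), and in PANC1 by 0.49 and 0.24 (adjusted p 0.00261 and 0.01). In PATU8988T TBC1D31 rose by 0.28 (adjusted p = 0.0139). Its difference in MIA PaCa-2 was -0.18 (adjusted p = 0.459), and -0.38 (adjusted p = 0.002) without control replicate 2. Without MIA PaCa-2 control replicate 2, 6 of the 15 were lower and 3 higher in that line, beside 40.0% and 35.1% of all genes.

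The distal end of the centriole, where OFD1 also sits, had 9 of 14 tested genes lower and 4 higher in PANC1 (32.2% and 40.1% of all genes), with a median of -0.24. In MIA PaCa-2, 4 of 12 were lower and 1 higher, and in PATU8988T 1 of 13 was lower and 3 higher. Without control replicate 2, 6 were lower and 2 higher in MIA PaCa-2, beside 40.0% and 35.1% of all genes. CNTROB, a centriole duplication factor, fell by 0.49 in PANC1 (adjusted p = 7.82e-06) and 0.35 in MIA PaCa-2 (adjusted p = 0.037). SCLT1, a distal appendage protein, fell by 0.83 in MIA PaCa-2, from 2.51 ± 0.40 to 1.36 ± 0.09 FPKM (SD, n = 3, adjusted p = 0.00608). Its difference in PANC1 was -0.98 (adjusted p = 0.000416). CEP164, the distal appendage protein that docks vesicles, rose by 0.54 in PANC1 (adjusted p = 5e-06). In PATU8988T, C2CD3, which promotes centriole elongation, rose by 0.65, from 9.87 ± 0.20 to 15.6 ± 0.51 FPKM (SD, n = 3, adjusted p = 1.21e-05), and ODF2 of the subdistal appendages fell by 0.19 (adjusted p = 0.0314). In PANC1 too, C2CD3 was higher (0.38, adjusted p = 7.91e-05) and ODF2 lower (-0.22, adjusted p = 0.00409).

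Among the other BBSome genes with ARL6, 5 of 8 tested were higher and 1 lower in PANC1 (40.1% and 32.2% of all genes). In MIA PaCa-2, 4 of 7 were higher and 1 lower (18.7% and 21.7%), as also without control replicate 2 (35.1% and 40.0%). In PATU8988T, 1 of 7 was higher and 2 lower (20.9% and 18.5%). BBS4 itself was higher, higher and not past the test in PANC1, MIA PaCa-2 and PATU8988T. BBIP1, the smallest BBSome subunit, was the one that was lower in PANC1 and MIA PaCa-2, with differences of -1.75 (10.98 ± 0.54 to 3.18 ± 0.12 FPKM, SD, n = 3, adjusted p = 6.02e-09) and -1.65 (adjusted p = 0.00278). BBS5 rose by 0.68 in PANC1 (adjusted p = 2.19e-05). BBS2 rose by 0.34 in PANC1 (adjusted p = 0.000203) and 0.74 in MIA PaCa-2 (adjusted p = 0.000879). In PATU8988T, BBS1 fell by 0.24 (adjusted p = 0.0152), whereas it rose by 0.49 in PANC1 (adjusted p = 0.000469) and 0.83 in MIA PaCa-2 (adjusted p = 0.00388). TTC8 (BBS8) was higher in each line, with differences of 0.56 (PANC1, adjusted p = 0.000102), 0.52 (MIA PaCa-2, adjusted p = 0.0257) and 0.22 (PATU8988T, adjusted p = 0.0277). Transition zone genes, the neighbours of CEP290 at the cilium base, were higher for 9 and lower for 1 of 15 in PANC1, higher for 7 and lower for 2 of 14 in MIA PaCa-2 (8 and 3 without control replicate 2), and higher for 2 and lower for 5 of 14 in PATU8988T, to be read against the same shares of all genes. TCTN1 rose by 0.56 in PANC1 (adjusted p = 2.32e-06) and 0.61 in MIA PaCa-2 (adjusted p = 0.00733). TMEM67 rose by 0.40 (PANC1, adjusted p = 0.000245) and 1.05 (MIA PaCa-2, adjusted p = 0.00637) and fell by 0.32 in PATU8988T (adjusted p = 0.00222). TCTN2 rose by 0.46 (PANC1, adjusted p = 3.26e-05) and 0.55 (MIA PaCa-2, adjusted p = 0.00644) and fell by 0.15 in PATU8988T (adjusted p = 0.0351). B9D1 rose by 0.36 (PANC1, adjusted p = 0.00491) and 0.64 (MIA PaCa-2, adjusted p = 0.0114) and fell by 0.33 in PATU8988T (adjusted p = 0.0042).

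Notch genes were read around MIB1. Of 8 tested, 5 were lower and 2 higher in PANC1 (32.2% and 40.1% of all genes), and 2 lower and 1 higher in MIA PaCa-2 (21.7% and 18.7%). Without control replicate 2, 2 were lower and 5 higher in MIA PaCa-2 (40.0% and 35.1%). PATU8988T had 5 genes tested, 3 lower and 1 higher (18.5% and 20.9%). The ligand JAG2 was lower in each line, with differences of -0.92 (PANC1, adjusted p = 6.16e-06), -0.97 (MIA PaCa-2, adjusted p = 0.00995) and -0.997 (PATU8988T, adjusted p = 3.31e-05). The ligand JAG1 fell by 0.67 in PANC1 (adjusted p = 1.25e-07) and rose by 0.34 in MIA PaCa-2 (adjusted p = 0.0132). The receptor NOTCH1 was lower in each line, with differences of -0.30 (PANC1, adjusted p = 0.018), -0.87 (MIA PaCa-2, adjusted p = 0.00636) and -0.56 (PATU8988T, adjusted p = 0.000497). The receptor NOTCH3 fell by 1.73 in PATU8988T, from 2.32 ± 0.16 to 0.628 ± 0.030 FPKM (SD, n = 3, adjusted p = 5.05e-06). In MIA PaCa-2, NOTCH3 differed by -0.06 (adjusted p = 0.831), and by 0.17 (adjusted p = 0.0166) without control replicate 2.

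**Figure D4:**
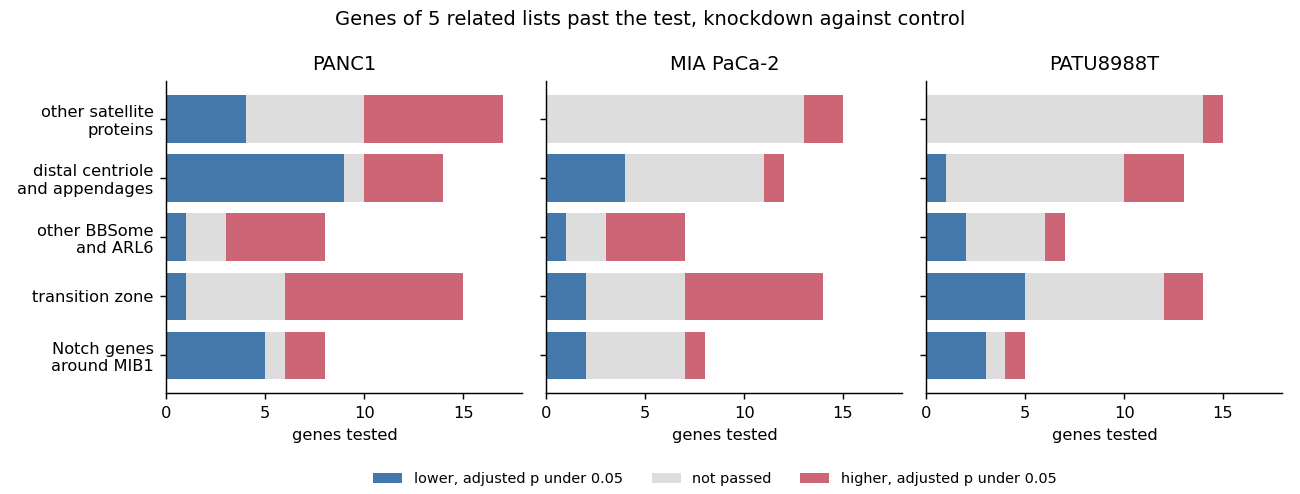
Number of genes tested in 5 related lists in each line, split into those lower, those not past the test and those higher at an adjusted p below 0.05. In PANC1 and MIA PaCa-2 the BBSome and transition zone lists hold more higher than lower genes (5 and 1, 9 and 1, 4 and 1, 7 and 2), and in PATU8988T more lower than higher ones (2 and 1, 5 and 2).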

How the data were processed

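Total RNA of 18 libraries from PANC1, MIA PaCa-2 and PATU8988T cells was sequenced. The authors aligned reads with HISAT2, counted them with HTSeq-count and deposited FPKM values for 26668 gene symbols. The submitters' processing notes name hg38 beside the mouse builds GRCm38 and mm10, and the annotation is not given in the sources used here. The labels and the paper's methods name different RNA extraction and library kits. In each line all values above 0 were whole multiples of a step set by gene length and library size, from which reads and gene lengths were recovered. PANC1 had the gene length of MIA PaCa-2 for 53.7% of shared genes and of PATU8988T for 53.8%, and MIA PaCa-2 and PATU8988T agreed for 97.0%, so each change was computed within a line, and levels between lines were read as recovered reads per library total. The table listed no OFD1 pseudogene (0 of the 18 that RefSeq names), and whether their reads were counted on OFD1 is not known.

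Within each line, genes with a mean of at least 1 FPKM were kept, a linear model of log2(FPKM + 0.1) was run in R 4.3.3 with limma 3.58.1 (lmFit, eBayes with a variance trend), and p-values were adjusted by Benjamini-Hochberg over all genes tested. Calls were made at an adjusted p below 0.05. The authors' threshold adds a fold change above 2 or below 0.5. Since the deposited unit is FPKM, a count test was not the main test. Fold changes on this scale understate those of low genes. Differences between lines were interaction terms in 1 fit of all libraries over 9083 genes. Both fits and the recovery were tested on simulated data. Alternatives were other pseudocounts (1 and 0.01 FPKM), no filter or a mean of at least 5 FPKM, median centring, no variance trend, limma-voom on recovered reads, the replicate number as a block, each library left out, and a GC correction (loess span 0.5 on the GC content of GENCODE 29 transcripts), which was added after seeing the data, as was the interaction of PANC1 and PATU8988T without MIA PaCa-2 control replicate 2. Promoters came from RefSeq (GRCh38.p14), with entries for 7 of the 8 members.

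The members and all gene lists were chosen with earlier results of these data known. The genes named were the members, the 2 smallest p-values of each list in each line among genes past the test, the tested neighbours of OFD1 and the 5 genes most like OFD1. Of these, 1 gene of a list is not reported here. Markers were named from a list of their own, and TCEANC and EGFL6 as untested neighbours. Intervals cover the spread between libraries, and counting percentages cover counting error only.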

Additional observations from a re-analysis of the deposited data

Results flagged for a closer look

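A test of the difference between lines, an interaction term over all 18 libraries, drew attention to 8 results among the members. Of the 9083 genes tested, 43.4% differed for PANC1 minus MIA PaCa-2, 35.8% for PANC1 minus PATU8988T and 52.9% for MIA PaCa-2 minus PATU8988T. The members' own shares were not above these. The knockdown change of OFD1 differed by -0.46 (PANC1 minus MIA PaCa-2) and by 0.49 (MIA PaCa-2 minus PATU8988T), since OFD1 fell least in MIA PaCa-2. The second of these did not pass with a pseudocount of 1 FPKM. The change of PCM1 differed by 0.48 for PANC1 minus PATU8988T and by 0.60 for MIA PaCa-2 minus PATU8988T, with a rise in PANC1 and overlapping groups in PATU8988T. The change of BBS4 differed for the same pairs of lines, by 0.48 and by 0.81. The change of MIB1 differed by -0.71 for PANC1 minus MIA PaCa-2 and by 0.70 for MIA PaCa-2 minus PATU8988T, and both values fell to about 0.36 and 0.35 in size once MIA PaCa-2 control replicate 2 was left out. The lines differ in the depth of OFD1 knockdown, in gene models and in that library, and the part of each was not tested.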

How the results depend on the processing

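Over the alternatives run, 633 values of single genes kept their direction and their side of the threshold, 68 lost a call, 20 gained one and 31 changed sign, while 97 values that answer a comparison kept their call or, for counts, stayed within 1.5 times, 45 counts moved by over 1.5 times and 6 values lost their call. Unless a construction is named, the cause was not tested. Requiring a mean of at least 5 FPKM left fewer genes to test (OFD1 was not among them in any line) and gave 3 members in PANC1, 0 of 4 tested in MIA PaCa-2 (limma, 2 at an unadjusted p below 0.05) and 0 of 3 in PATU8988T (limma, 0 at an unadjusted p below 0.05). That filter also gave 1 member that differed between PANC1 and MIA PaCa-2, 1 between PANC1 and PATU8988T and 2 between MIA PaCa-2 and PATU8988T. With no filter, 1 member passed in each of MIA PaCa-2 and PATU8988T, 1 differed between PANC1 and MIA PaCa-2, and the OFD1 difference in MIA PaCa-2 was -0.61 (adjusted p = 0.0504). After a GC correction, chosen after seeing the data, 5 members passed in MIA PaCa-2, a count given without the share of all genes. The same correction gave -0.045 for MIB1 and -0.032 for SSX2IP in PANC1, 0.12 for CEP131 in MIA PaCa-2 and -0.011 for MIB1 in PATU8988T, where CEP131 lost its call (-0.09, adjusted p = 0.161) and PCM1 (adjusted p = 0.0301) and SSX2IP (adjusted p = 0.0434) gained one. Requiring a 2-fold change left 3 genes of the wider lists for PANC1, 2 for MIA PaCa-2 and 1 for PATU8988T. A pseudocount of 1 turned the OFD1 difference between PANC1 and PATU8988T to -0.18, and median-centred libraries turned that of SSX2IP between MIA PaCa-2 and PATU8988T to 0.033. CEP72 in PANC1 also lost its call without the filter (adjusted p = 0.0927), without the variance trend (adjusted p = 0.0597) and with limma-voom (adjusted p = 0.052).

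With 1 library left out at a time, the OFD1 difference in MIA PaCa-2 ranged from -0.76 to -0.52 and passed only without control replicate 2 (adjusted p = 8.76e-05), since each of the 5 other omissions gave an adjusted p from 0.0604 to 0.0896. The count of members ranged from 1 to 7 in MIA PaCa-2, with 7 without control replicate 2, and from 1 to 2 in PATU8988T. Ranges that crossed 0 were -0.049 to 0.039 for MIB1 and -0.036 to 0.039 for SSX2IP in PANC1, -0.18 to 0.47 for CEP290, -0.21 to 0.17 for CEP131 and -0.19 to 0.34 for SSX2IP in MIA PaCa-2, and -0.055 to 0.11 for MIB1 in PATU8988T. Of the differences between lines, PANC1 minus MIA PaCa-2 ranged from -0.065 to 0.20 for CEP72, -0.23 to 0.066 for PCM1 and -0.33 to 0.20 for SSX2IP. PANC1 minus PATU8988T ranged from -0.11 to 0.056 for MIB1 and -0.035 to 0.11 for OFD1. MIA PaCa-2 minus PATU8988T ranged from -0.022 to 0.35 for CEP131 and -0.39 to 0.14 for SSX2IP. The members that differed numbered 0 to 3 for PANC1 minus MIA PaCa-2 and 0 to 3 for PANC1 minus PATU8988T (limma, 2 or 3 at an unadjusted p below 0.05 where the count was 0), and 2 to 6 for MIA PaCa-2 minus PATU8988T.

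The replicate numbers were not taken to pair the samples, because same-numbered libraries deviated together with correlations of -0.111 to 0.13 and 1 of 9 pairs was over 0.1. With the replicate block, 1 member passed in PATU8988T, where CEP290 (adjusted p = 0.054) and CEP131 (adjusted p = 0.0638) no longer did, and CEP290 passed in PANC1 (adjusted p = 0.0288). The block also left 1 member that differed between PANC1 and PATU8988T, since PCM1, at 0.48, had an adjusted p of 0.063, and it changed no other call of a member.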
